A study of Mus musculus with 30 samples.

Results

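Chromatin protein genes were followed through the poly(A) RNA of mouse CD11b+ microglia: the histones, which wrap DNA into nucleosomes, and the high mobility group (HMG) proteins, which bind and bend nucleosomal DNA. Members were every row of the expression table whose gene symbol begins with Hist1h to Hist4h, H2af, H1f, H3f, or Hmga, Hmgb or Hmgn and a digit, apart from Hmga1 and Hmga2. The rule gave 28 of the 14225 transcripts measured. They fell into 13 replication-dependent histones (symbols in Hist), 9 replacement histones (H2af, H1f and H3f) and 6 HMG genes.

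All mice were C57BL/6J offspring. Their dams had been injected during pregnancy with saline (Saline) or with the viral RNA mimic poly(I:C) (maternal immune activation, MIA). Saline and MIA offspring were sampled at embryonic day 17 (E17), postnatal day 7 (P7) and P20, and at P60 after control chow (CTRL) or after chow with the CSF1R inhibitor PLX5622, which depletes microglia, followed by control chow during which microglia repopulated the brain (MG-REP). These 10 groups had 3 libraries each, and a library held a pooled litter at E17, 3 pooled brains at P7 and 1 brain at P20 and P60. Cells were pulled from whole brain with CD11B beads, which also take other myeloid cells.

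In a dividing cell, the replication-dependent histones are made in bulk during S phase to package new DNA, and their mRNAs end in a short stem-loop instead of a poly(A) tail. Replacement histones such as H3.3 are made throughout the cell cycle from mRNAs with poly(A) tails, and take the place of the bulk histones outside replication. H2A.X, counted with them here, has both a stem-loop and a tailed mRNA. Among HMG proteins, the HMGB proteins bend DNA, the HMGN proteins bind nucleosomes directly and the HMGA proteins bind AT-rich DNA. Because the libraries were made from poly(A) RNA, mRNA without a tail is largely left out of them. The TPM below (reads scaled for transcript length and for the total of the library) measure what this selection kept. RNA without a tail (52 transcripts, such as Malat1 and small nucleolar RNAs) still summed to 3114 to 9079 TPM. In Saline offspring it was 3524 to 4058 TPM at P7 and 4620 to 6102.5 TPM at P20. It was 4736 to 6760 TPM in Saline + CTRL against 3345 to 4580 TPM in Saline + MG-REP. In MIA offspring P7 and P20 overlapped, and MG-REP (4620 to 9079 TPM) lay above CTRL (3568.5 to 4483 TPM). Its part in the member results was not tested.

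The 3′ stem-loop distinguishes the classes, and it is shown here for the members whose transcripts hold it. Each line gives the 16 bases of the stem-loop on the mRNA strand, with the 4 loop bases in capitals, and coordinates are of GRCm38 with the sequence from GENCODE.
Hist1h1c, chr13:23739512-23739527 (+): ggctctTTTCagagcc
Hist3h2a, chr11:58955172-58955187 (+): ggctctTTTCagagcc
Hist1h4i, chr13:22040966-22040981 (−): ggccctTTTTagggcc
Hist1h4h, chr13:23531458-23531473 (+): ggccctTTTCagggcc
H2afx, chr9:44335240-44335255 (+): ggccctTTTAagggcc
The first of these 16-base sequences was also that of Hist3h2ba, Hist1h2bg, Hist1h2ae, Hist1h1e and Hist1h1d. A stem-loop was found in 9 of 13 replication-dependent transcripts (69.2%), in 1 of 9 replacement histone transcripts (H2afx), in 0 of 5 HMG transcripts with a sequence, and in 3 of 13979 other transcripts of the table (0.021%). The linked transcripts of Hist2h2be, Hist1h4k, Hist1h2bc and Hist1h1b held none, and only GENCODE transcripts were searched. Those of Hist1h4k (312 bases), Hist1h1b (743) and Hist2h2be (2620) are shorter than the RefSeq genes (409, 794 and 2667 bases). A stem-loop in the missing bases would not have been found. In RefSeq, the 9 replication-dependent genes ended 4 to 8 bases after the loop, whereas the H2afx gene ran on for 822 bases. The GENCODE transcripts did not make this contrast. There the 9 ran on for 46 (Hist1h4h) to 4884 bases (Hist1h1d), with 840 in Hist1h1c and 1643 in Hist3h2a, and H2afx for 822. H2afx, which encodes the H2A.X variant that is phosphorylated at DNA breaks, is the replacement histone known for making both a stem-loop and a tailed mRNA. The poly(A) signal AATAAA stood in the last 50 bases of 7 of 9 replacement histone transcripts (77.8%), 5 of 13 replication-dependent (38.5%) and 2 of 5 HMG transcripts (40%), and of 62.7% of the other transcripts.

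The 4 linker histone H1 genes of the replication-dependent class held a CCAAT box at a like distance from the start, shown because both replacement H1 genes held none. Each line gives 30 bases of the promoter on the gene's strand in GRCm38.p6, from RefSeq, with the CCAAT box in capitals.
Hist1h1c, chr13:23738741-23738770 (+): gccgctggagcaCCAATcagcgcgcgcctg
Hist1h1d, chr13:23554969-23554998 (+): cggcgcagggaaCCAATcaccacgcagctt
Hist1h1e, chr13:23622593-23622622 (−): ctggacagcgcaCCAATcacggcgcagctc
Hist1h1b, chr13:21780661-21780690 (−): ttggccgctccaCCAATcacagcccagcac
The box began at position −54, −51, −52 and −53 from the start of the gene, in this order. A CCAAT on either strand that began in this range, which was set from these 4 promoters, was found in 386 of all 32851 promoters (1.18%). The promoter windows of H1f0 and H1fx, from 250 bases before to 50 after the start, held no CCAAT on either strand. Anywhere in the window, CCAAT did not set the classes apart: it was in 8 of 11 replication-dependent (72.7%), 5 of 7 replacement histone (71.4%) and 5 of 6 HMG promoters (83.3%), against 37.4% of all promoters. TATAAA, on either strand, was in 8 of 11 replication-dependent promoters (72.7%), 1 of 7 replacement histone promoters and 0 of 6 HMG promoters, against 13.6% of all promoters. Spacing and letters are a description of these windows and no factor's binding was measured.

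The 30 libraries held an estimated 7980000 to 12790000 counted reads, and summed markers of microglia ranged from 16294 to 51118 TPM, with all 7 markers above 0 in every library. Several libraries stood apart. E17 MIA library 1 had 1329 TPM of summed neuron markers against 46.6 to 374.8 TPM in the other 29 libraries, and it and P7 MIA library 3 were highest in neural progenitor markers (3489 and 2832 TPM, against 131 to 1641 TPM in the rest). Saline + MG-REP library 1 had 1320 TPM of border macrophage markers against 687 and 689 TPM in its group, and library 2 of that group 4920 TPM of neutrophil and monocyte markers against 85.5 and 330.1 TPM. By Xist and Y-linked RNA, all 6 MG-REP and all 6 P20 libraries came from females and each CTRL group from 1 female and 2 males, while 11 of the 12 pooled E17 and P7 libraries held RNA of both sexes, so sex moved with the MG-REP and P20 comparisons. In bulk RNA, fewer cells of a type and less RNA per cell cannot be told apart.

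Among the histone members measured in this poly(A) RNA, replacement histones made up most of the TPM in every group. Their summed TPM was 2336 ± 93.4 in E17 Saline, 2134 ± 144 in P7 Saline, 1123 ± 69.3 in P20 Saline and 1202 ± 58.7 in Saline + CTRL (SD, n = 3 in each). The corresponding sums of the 13 replication-dependent histones were 424 ± 24.9, 345 ± 39.5, 360.4 ± 82.9 and 361 ± 23.8 TPM (SD, n = 3). The first class was high up to P7 and low from P20 without overlap, while the libraries of the second overlapped between P7 and P20. As a share of the TPM of these histone members, replacement histones took 84.6%, 86.1%, 75.9% and 76.9% in these 4 groups. After repopulation they took 81.9% in Saline and 76.6% in MIA offspring. Selection for poly(A) tails favours replacement histones, so these shares do not describe all histone RNA.

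**Figure D1:**
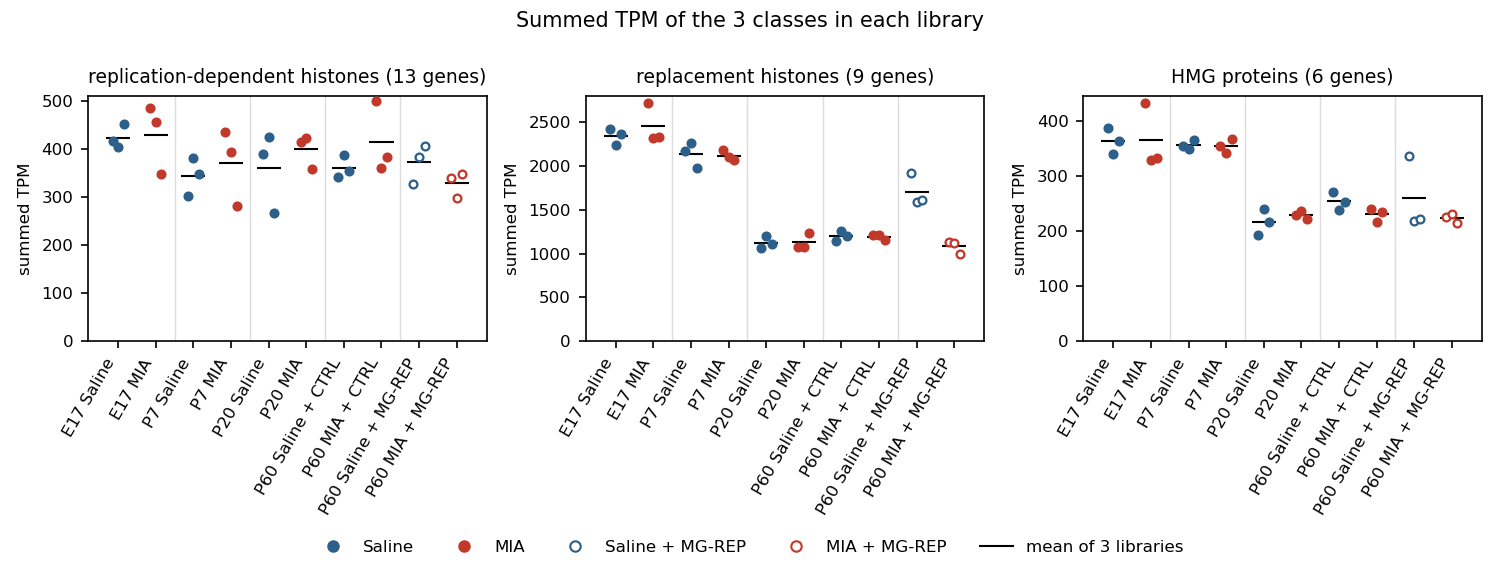
Summed TPM (vertical axes) of replication-dependent histones, replacement histones and HMG genes in the 10 groups (horizontal axis), with a point for each library and a bar for the mean of 3. Replacement histones sat between 1977 and 2708 TPM in the 12 E17 and P7 libraries and between 1061 and 1262 TPM in the 12 P20 and CTRL libraries, and the replication-dependent sums overlapped between ages.

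Summed over H3f3a and H3f3b, H3 RNA averaged 1366 TPM in E17 Saline and 747 TPM in P20 Saline. Shares within a type could vary only for H1 and H2A, the types with members of both classes. Replacement genes gave 74.3% ± 1.06 of H1 RNA in E17 Saline and 62.3% ± 6.99 in P20 Saline (SD, n = 3), and 81.8% ± 1.54 and 64.8% ± 2.96 of H2A RNA. In Saline + MG-REP they gave 77.0% ± 7.63 of H2A RNA against 62.2% ± 8.63 in Saline + CTRL (SD, n = 3), with libraries from 72.2% to 85.8% and from 54.7% to 71.6%. These libraries did not overlap. The H3 members were the replacement genes H3f3a and H3f3b, and the H2B and H4 members were all replication-dependent. Of 67 protein-coding replication-dependent genes that match the rule in GENCODE, 13 were analysed here, against 8 of 15 replacement and 5 of 9 HMG genes. The H2A shares leave out H2afz and H2afy, replacement genes that were not analysed here.

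H3f3b, 1 of 2 genes for the replacement histone H3.3, was the most abundant member, with 53.2% of the TPM of its class. It gave 1222, 1078 and 902 TPM in the 3 P7 Saline libraries and 564, 711 and 671 TPM in P20 Saline. In MIA offspring it gave 1098, 1013 and 926 TPM at P7 and 589.5, 629 and 721 TPM at P20. Every P20 library lay below every P7 library, and over the 4 groups of E17 and P7 the range was 902 to 1252 TPM (median 1114, n = 12) against 564 to 836 TPM in P20 and CTRL (median 694, n = 12). H3f3a, the other H3.3 gene, encodes the same protein, and ranged over 159.9 to 219.8 TPM in the 12 younger libraries and 75.4 to 105 TPM in the 12 older ones.

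H1f0, the linker histone of differentiated and resting cells, was the next most abundant. It gave 363, 399.6 and 409.6 TPM in E17 Saline, 291, 442 and 379 TPM in P7 Saline, 175, 166 and 145 TPM in P20 Saline and 174, 199.9 and 142 TPM in Saline + CTRL. The 12 E17 and P7 libraries (290.7 to 452.9 TPM) were all above the 12 P20 and CTRL libraries (141.8 to 268.1 TPM). H2afv, a gene for the H2A.Z variant, ranged over 126 to 217 and 50.2 to 110.3 TPM in the same libraries, and H2afj, an H2A variant gene, over 68.1 to 99.8 and 39.8 to 75.8 TPM. H2afv did not overlap between the ages and H2afj did.

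Of the replication-dependent class, 4 genes gave most of the mean TPM, namely Hist1h1c (32.0%), Hist3h2a (27.6%), Hist1h2bc (17.4%) and Hist3h2ba (5.87%). Hist1h1c, a linker histone, gave 139.7, 132 and 103 TPM in P7 Saline and 95.03, 136 and 71.4 TPM in P20 Saline. Hist3h2a, a core histone H2A gene beside Hist3h2ba on chromosome 11, gave 47.0, 106 and 104 TPM and 116, 109 and 83.3 TPM. Neither gene separated the ages: over the 12 younger and 12 older libraries Hist1h1c ranged over 74.8 to 172 and 71.4 to 162 TPM. Hist1h2bc, an H2B gene, was lower at P7, with 47.2, 50.6 and 45.3 TPM in P7 Saline against 85.1, 92.4 and 53.4 TPM in P20 Saline. Hist3h2ba, a further H2B gene, gave 119.9, 28.3 and 18.1 TPM in E17 MIA, where library 1 was the highest of all 30.

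The other 9 replication-dependent genes were weak, with means of 2.00 to 16.8 TPM over the 30 libraries. Hist1h4i, an H4 gene, was highest at E17, with 25.2, 29.8 and 25.6 TPM in E17 Saline and 9.60, 14.3 and 11.4 TPM in Saline + CTRL, which did not overlap. Hist2h2be, an H2B gene without a stem-loop in its linked transcript, stayed between 9.34 and 28.5 TPM in all libraries. Hist1h4k was listed at 0 in 3 libraries, Hist1h1b in 2 and Hist1h1d in 1.

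Among HMG genes, Hmgn1 and Hmgn2, nucleosome binders, and Hmgb2, a DNA-bending protein of dividing and developing cells, were high up to P7. Hmgn1 ranged over 189 to 259 TPM (median 202) in the 12 E17 and P7 libraries and 65.8 to 91.4 TPM (median 80.3) in the 12 P20 and CTRL libraries. Hmgb2 ranged over 26.2 to 35.2 TPM (median 32.5) and 5.37 to 9.18 TPM (median 6.07). Neither overlapped between the ages. Hmgb1, the most abundant HMG protein in many tissues, was listed at only 2.44 to 7.80 TPM, and 65.6% of its 40-base stretches also occurred in other genes, 140 of them, so its level and differences are uncertain. The same holds for Hmgn2, with 71.5% of its stretches in 24 other genes.

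Hmga2-ps1 ran the other way. This transcribed pseudogene of Hmga2 lies on chromosome 1 (GRCm38.p6, 176834624 to 176836133), inside the span of Sdccag8, and the libraries hold no strand, so its reads cannot be told apart from those of unspliced Sdccag8 RNA. It gave 37.9, 34.2 and 38.2 TPM in P7 Saline, 67.7, 103 and 81.4 TPM in P20 Saline and 139.5, 106 and 143 TPM in Saline + CTRL. All 12 older libraries were above all 12 younger ones, and it made up 23.8% of the mean TPM of the HMG class, so that the log2 ratio of the HMG sum at P20 to that at P7 in Saline offspring was −0.72 with it and −1.26 without it.

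**Figure D2:**
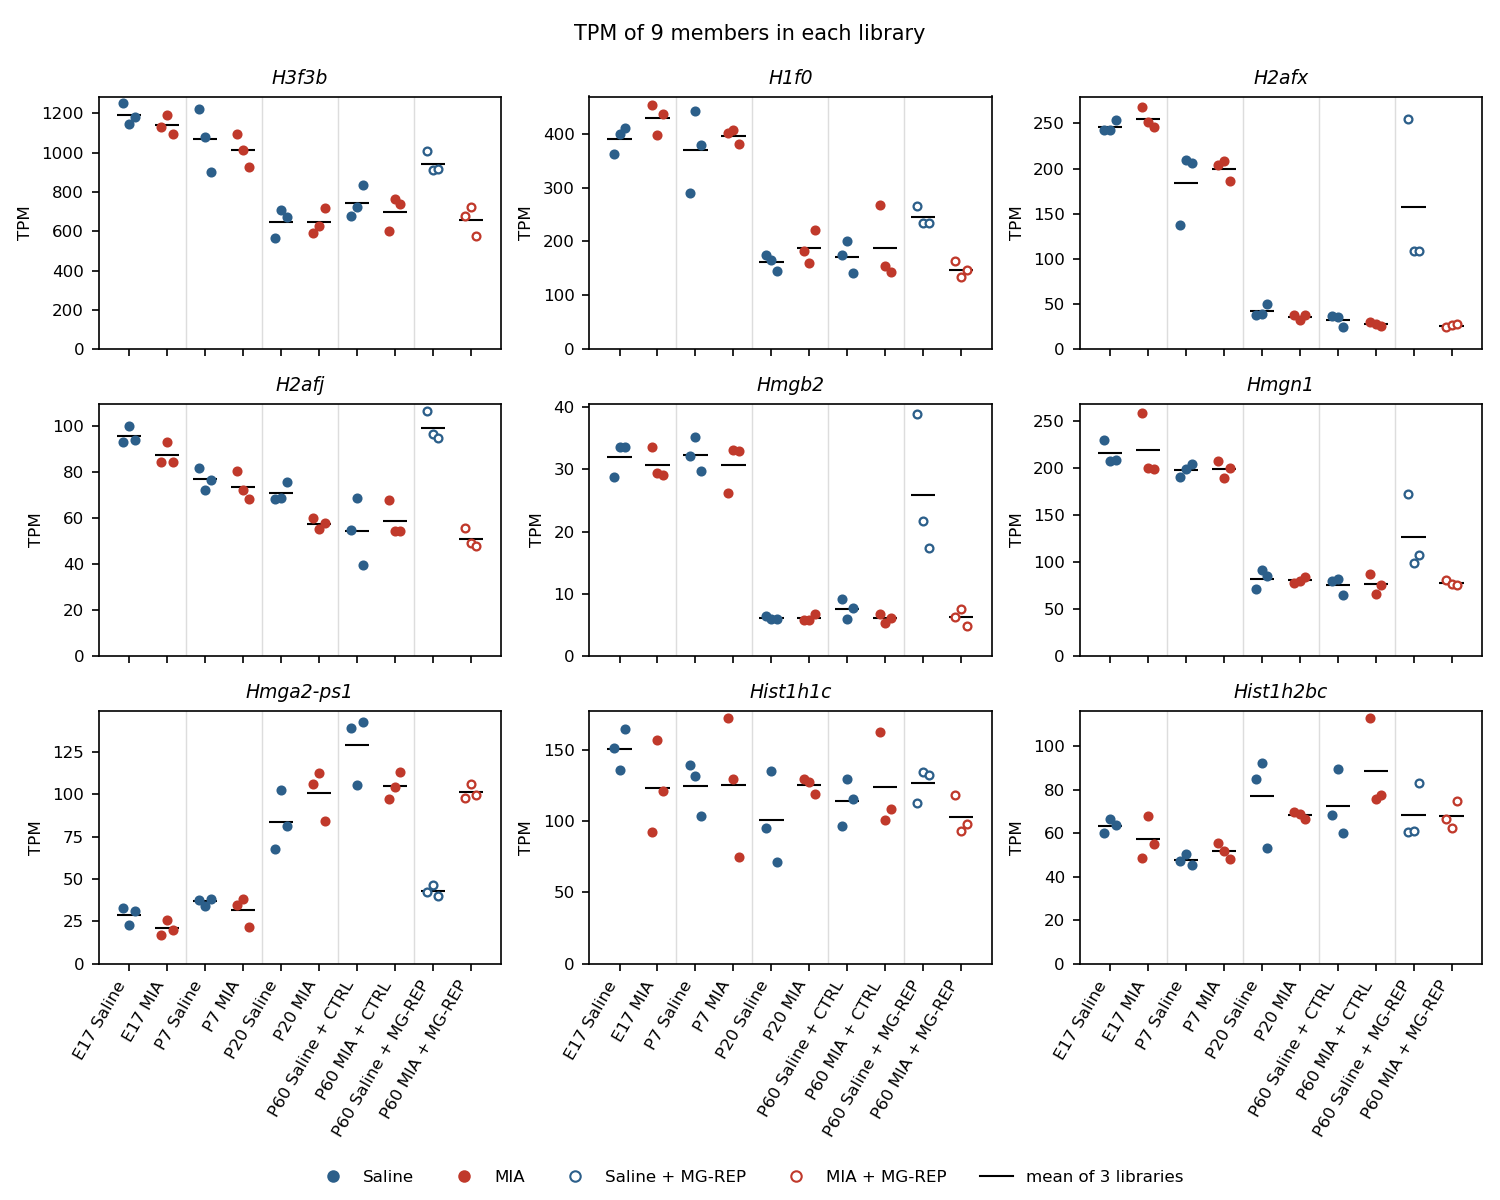
TPM (vertical axes) of 9 members in the 30 libraries, in the 10 groups (horizontal axis), with a point for each library and a bar for the group mean. H2afx, Hmgb2, Hmgn1 and H3f3b are high at E17 and P7, low at P20 and in CTRL, and higher in Saline + MG-REP than in Saline + CTRL, Hmga2-ps1 has the opposite order, and Hist1h1c overlaps between all ages.

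The comparison of P20 with P7 asks what changed as microglia left their early postnatal state. Between P7 and P20, most replacement histones and 3 (Saline) or 4 (MIA) of 6 HMG genes fell, Hmga2-ps1 rose, and most replication-dependent genes did not pass the test. In Saline offspring, 13 of 28 members passed (2 higher, 11 lower) by limma on log2(TPM + 1) at a Benjamini-Hochberg adjusted p under 0.05, where 36.2% of all transcripts passed (16.1% higher, 20.1% lower). In MIA offspring, 17 members passed (3 higher, 14 lower), where 35.6% of all transcripts passed (13.1% higher, 22.5% lower). The share of higher among those called in MIA offspring was 36.7%, and 49.2% and 49.3% under median-ratio scaling and quantile normalization. By class, 7 and 9 of 9 replacement histones were lower in Saline and in MIA offspring (in MIA offspring H2afj lost the call in 5 of 6 fits without 1 library, all but that without P7 MIA library 3, and H2afy3 in the fits without P7 MIA library 3 or P20 MIA library 2, with adjusted p up to 0.154 and 0.126), 3 and 4 of 6 HMG genes were lower with 1 higher in each, and of 13 replication-dependent histones 1 was lower in each, with 1 and 2 higher. The median log2 fold changes were −1.17 and −1.07 for replacement histones, −0.96 and −1.27 for HMG genes, and −0.0072 and 0.08 for replication-dependent histones, against −0.02 and −0.09 over all transcripts.

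Markers of other cells moved between the same groups. In Saline offspring, summed border macrophage markers ranged over 1796 to 1987 TPM at P7 and 692 to 890.4 TPM at P20, and endothelial markers over 1538 to 1673 and 568 to 1101 TPM. Oligodendrocyte lineage markers ranged over 265 to 453 and 1234 to 3362 TPM and microglia markers over 22722 to 28393 and 35998 to 44878 TPM. None of these lists overlapped between the ages, and their part in the member results was not tested.

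H2afx and Hmgb2 fell furthest. H2afx gave 138, 209 and 206 TPM in P7 Saline and 37.5, 39.2 and 50.3 TPM in P20 Saline (log2 fold change −2.08, SE 0.22, adjusted p = 1.33e-07). In MIA offspring it gave 204, 208 and 186 TPM and 37.8, 32.4 and 37.9 TPM (log2 fold change −2.44, SE 0.22, adjusted p = 9.30e-09). All 6 P7 libraries lay above all 6 P20 libraries. Hmgb2 gave 32.2, 35.1 and 29.7 TPM and 6.43, 6.01 and 6.05 TPM in Saline offspring (log2 fold change −2.22, SE 0.21, adjusted p = 1.31e-08), and 26.2, 33.05 and 32.9 TPM and 5.84, 5.82 and 6.85 TPM in MIA offspring (log2 fold change −2.14, SE 0.21, adjusted p = 2.35e-08), again without overlap.

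H3f3b fell by 0.71 (SE 0.12, adjusted p = 9.15e-05) and 0.65 (SE 0.12, adjusted p = 0.000246) on the log2 scale in Saline and MIA offspring. H1f0 fell by 1.17 and 1.08, Hmgn1 by 1.26 and 1.28, Hmgn2 by 1.31 and 1.27, H2afv by 1.19 and 1.06 and H3f3a by 0.90 and 0.79, each at an adjusted p of 4.69e-05 or less. In all, 11 members were lower in both kinds of offspring, 1 was higher in both (Hmga2-ps1, by 1.15 and 1.68), and 0 passed in opposite directions. The other members that rose were replication-dependent: Hist1h2bc in Saline (log2 fold change 0.64, SE 0.18, adjusted p = 0.00764), and Hist1h4k and Hist1h1e in MIA offspring. Hist1h4k gave 1.25, 1.32 and 0 TPM at P7 and 7.05, 6.72 and 1.83 TPM at P20 (log2 fold change 1.69, SE 0.49, adjusted p = 0.00943), which is a few reads per library, and both it and Hist1h1e (adjusted p = 0.0211) lost the call without P7 MIA library 3 (adjusted p = 0.0656 and 0.0901), P20 MIA library 1 (0.0543 and 0.123) or P20 MIA library 2 (0.0512 and 0.0694). Hist1h2bc lost it without P20 Saline library 2 (adjusted p = 0.0600).

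The replication-dependent gene that fell was Hist1h4i, by 0.78 and 0.81, and its groups overlapped: 11.7, 22.8 and 21.2 TPM in P7 Saline against 10.2, 7.62 and 12.8 TPM in P20 Saline. It lost the call in 4 of 6 fits without 1 library in each kind of offspring (adjusted p up to 0.185 and 0.204). Hist1h1b, the H1 gene of proliferating cells, changed by −1.04 (SE 0.43, adjusted p = 0.0611) and −1.08 (SE 0.43, adjusted p = 0.0524), with 1.32, 4.16 and 10.46 TPM in P7 Saline and 2.38, 2.46 and 0.36 TPM in P20 Saline. It passed in Saline offspring without P7 Saline library 1 (−1.61, adjusted p = 0.00477) or P20 Saline library 2 (−1.27, adjusted p = 0.0487).

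Genes that accompany histone supply moved as well. Of 40 DNA replication transcripts, 38 were lower at P20 in Saline and 39 in MIA offspring, with medians of −1.72 and −1.93. Of 33 transcripts of histone chaperones, which deliver histones to DNA, 23 were lower and 1 higher in both, and of 29 transcripts of histone mRNA processing and transcription, 13 and 14 were lower and 2 and 1 higher. Mki67, a marker of dividing cells, fell from 176, 171 and 200.1 TPM in P7 Saline to 4.56, 4.60 and 2.84 TPM in P20 Saline (log2 fold change −5.22, SE 0.24, adjusted p = 6.85e-13), and Pcna, the sliding clamp of DNA polymerase, from 305, 317 and 297 to 120.4, 109 and 147.5 TPM (log2 fold change −1.29, SE 0.17, adjusted p = 3.26e-06). Top2a and Rrm2, a topoisomerase and a subunit of ribonucleotide reductase, fell by 4.92 and 4.79. Slbp, which binds the stem-loop, and Cenpa, the centromeric H3, were not analysed here.

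Between the other neighbouring ages no member passed the test. From E17 to P7, 0 of 28 members passed in Saline and in MIA offspring by limma, where 4.32% of all transcripts passed in the former (3.09% higher, 1.23% lower) and 2.39% in the latter (1.59% higher, 0.801% lower), and 2 members in each had an unadjusted p under 0.05. The smallest p in Saline offspring was that of H2afj, with 93.1, 99.8 and 93.8 TPM at E17 and 81.7, 72.1 and 76.4 TPM at P7 (log2 fold change −0.31, adjusted p = 0.184), followed by Hist1h2bc (−0.41, adjusted p = 0.224). Hmga2-ps1 led in MIA offspring, with 16.8, 25.8 and 19.8 TPM at E17 and 34.9, 38.0 and 21.6 TPM at P7 (0.56, adjusted p = 0.145), followed by Hist1h1e (0.94, adjusted p = 0.325). The share of higher among all transcripts called was 71.5% in Saline offspring, and 58.2% after quantile normalization. Without E17 MIA library 2 Hmga2-ps1 passed (0.72, adjusted p = 0.0476), and without P7 MIA library 3, Hmga2-ps1 (0.80, adjusted p = 0.0193) and Hist1h2bg (1.86, adjusted p = 0.0362) passed.

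From P20 to P60 on control chow, 0 members passed in Saline and in MIA offspring, where 3.51% of all transcripts passed in the former (1.02% higher, 2.49% lower) and 2.60% in the latter (1.03% higher, 1.57% lower), and 4 and 3 members had an unadjusted p under 0.05. The share of higher among those called was 29.1% and 39.5%, against 44.8% and 51.6% under median-ratio scaling and 43.7% and 50% after quantile normalization. Hmga2-ps1 had the smallest p in Saline offspring, with 67.7, 103 and 81.4 TPM at P20 and 139.5, 106 and 143 TPM at P60 (log2 fold change 0.63, adjusted p = 0.0661), followed by H2afj (−0.41, adjusted p = 0.0847). In MIA offspring these were Hist2h2be, with 13.6, 14.3 and 16.1 TPM at P20 and 28.5, 22.7 and 19.7 TPM at P60 (0.64, adjusted p = 0.0743), and Hist1h1d (−1.31, adjusted p = 0.165). Without P20 Saline library 2, Hmga2-ps1 passed (0.78, adjusted p = 0.0392), and without Saline + CTRL library 2, H2afj did (−0.59, adjusted p = 0.0108).

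The MG-REP groups ask how repopulated microglia differ from those that were never depleted. In Saline offspring, 12 of 28 members passed (10 higher, 2 lower) by limma, where 26.7% of all transcripts passed (11.9% higher, 14.9% lower). The share of higher among those called was 44.3%, and 57.5% and 51.1% under median-ratio scaling and quantile normalization. All 6 HMG genes passed, 4 higher and 2 lower, as did 5 of 9 replacement histones, all higher, and 1 of 13 replication-dependent histones, higher. In the same comparison, summed border macrophage markers ranged over 687 to 1320 TPM in Saline + MG-REP against 422 to 568 TPM in Saline + CTRL, endothelial markers over 318 to 643 against 818 to 1340 TPM, and microglia markers over 24895 to 28374 against 35292 to 51118 TPM, without overlap. Their part in the member results was not tested. The median log2 fold change was 0.62 for HMG genes, 0.34 for replacement histones and 0.05 for replication-dependent histones, against −0.14 over all transcripts. Summed TPM of replacement histones was 1701 ± 182 in Saline + MG-REP against 1202 ± 58.7 in Saline + CTRL, a ratio of 1.41, and that of replication-dependent histones 372 ± 40.9 against 361 ± 23.8 (SD, n = 3), a ratio of 1.03. Each sum leans on its most abundant gene. Without H3f3b the replacement sum was 756 ± 127 against 456 ± 86.8 TPM. Without Hist1h1c the replication-dependent sum was 246 ± 30.1 against 247 ± 9.97 TPM (SD, n = 3).

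H2afx rose most, from 37.0, 35.8 and 24.5 TPM in the Saline + CTRL libraries to 255, 109 and 109 TPM in Saline + MG-REP (log2 fold change 2.15, SE 0.22, adjusted p = 6.84e-08). Library 1 of Saline + MG-REP reached the level of E17, and the others lay between the CTRL libraries and the P7 libraries. Hmgb2 rose from 9.18, 5.93 and 7.76 to 38.8, 21.6 and 17.4 TPM (log2 fold change 1.58, SE 0.21, adjusted p = 2.21e-06), with library 1 again the highest. H2afj rose from 54.7, 68.5 and 39.8 to 106, 96.4 and 94.7 TPM (log2 fold change 0.89, SE 0.13, adjusted p = 1.21e-05), and its 3 libraries were alike and close to those of E17 Saline. Hmga2-ps1 fell from 139.5, 106 and 143 to 42.2, 46.3 and 40.05 TPM (log2 fold change −1.56, SE 0.19, adjusted p = 8.04e-07). No library of one group overlapped the other in these 4 genes.

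H3f3a rose from 87.7, 94.2 and 75.4 to 158, 119.8 and 121 TPM (log2 fold change 0.62, SE 0.10, adjusted p = 5.99e-05), and Hmgn1 from 80.1, 82.1 and 65.8 to 173, 99.4 and 108 TPM (log2 fold change 0.69, SE 0.15, adjusted p = 0.00101), both without overlap. These 6 genes kept the call without any 1 of the 6 libraries. The other 6 calls did not. H3f3b rose from 678, 724 and 836 to 1008, 911 and 916 TPM (log2 fold change 0.34, SE 0.12, adjusted p = 0.0406), but lost the call in 5 of 6 such fits (adjusted p up to 0.172). Without Saline + MG-REP library 1, 6 members remained called, and Hmgn5 (adjusted p = 0.0678), Hmgn2 (0.251), Hmgb1 (0.0754), Hist1h1b (0.0916), H3f3b (0.158) and H1f0 (0.129) were lost. With log2 Xist as a covariate, 9 of the 12 remained called.

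Hist1h1b was the replication-dependent gene that passed, with 0, 0.69 and 0 TPM in Saline + CTRL and 3.61, 1.71 and 1.72 TPM in Saline + MG-REP (log2 fold change 1.44, SE 0.43, adjusted p = 0.0136). Its median over all 30 libraries was 5 reads, with 1 read worth a median of 0.327 TPM, so the Saline + CTRL values stood at the floor. Hist1h1d (1.15, adjusted p = 0.0969) and Hist1h4i (0.66, adjusted p = 0.114) did not pass. Neither overlapped between the groups, but how many of all transcripts do the same was not counted. The abundant members did not separate: the 95% confidence interval of the log2 fold change was −0.35 to 0.66 for Hist1h1c, −0.56 to 0.43 for Hist3h2a and −0.46 to 0.29 for Hist1h2bc. All 3 intervals lay below that of H2afx, which was 1.69 to 2.60.

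**Figure D3:**
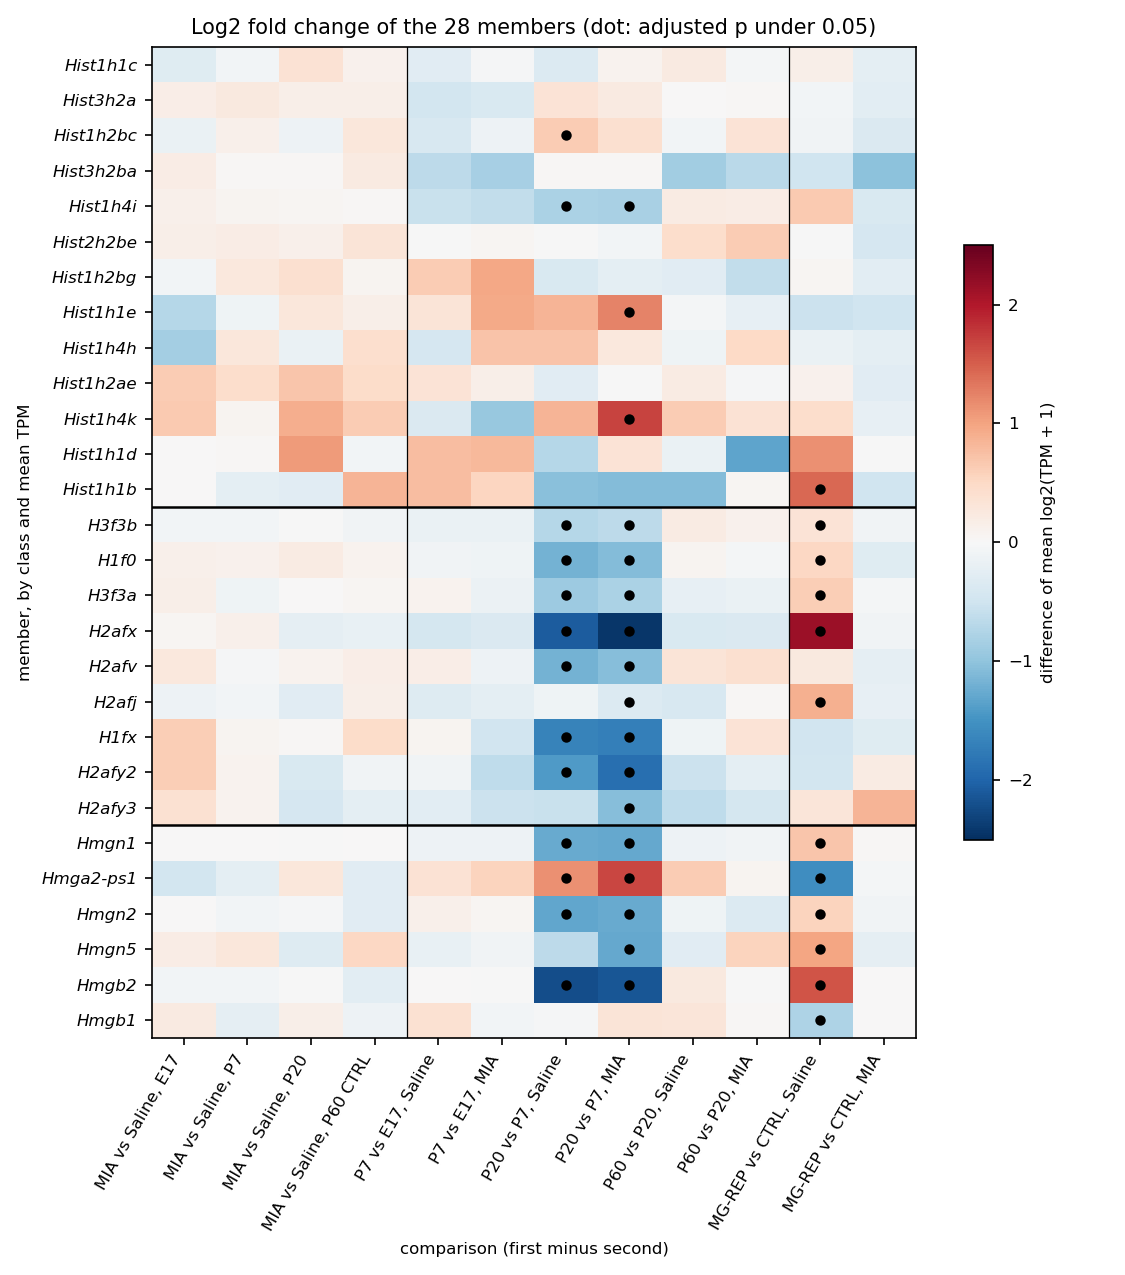
Difference of mean log2(TPM + 1) of the 28 members (vertical axis, by class and mean TPM) in 12 comparisons (horizontal axis), red where the first group was higher and blue where it was lower, with a dot for an adjusted p under 0.05. Most replacement histones and HMG genes are blue for P20 against P7, H2afx and Hmgb2 are the reddest for MG-REP against CTRL in Saline offspring, and there is no dot for MG-REP in MIA offspring or for MIA against Saline.

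DNA replication RNA rose in the same libraries. Of its 40 transcripts 32 were higher in Saline + MG-REP than in Saline + CTRL and 0 lower (median 1.29), against 16 higher and 1 lower of 33 for chaperones and 11 higher and 2 lower of 29 for histone mRNA processing. Mki67 gave 3.84, 3.19 and 2.77 TPM in Saline + CTRL and 234, 93.9 and 82.9 TPM in Saline + MG-REP (log2 fold change 4.86, SE 0.24, adjusted p = 8.81e-13), Top2a rose by 4.61 and Rrm2 by 4.05. Pcna gave 102, 112 and 120.5 TPM and 278, 160.1 and 141 TPM (log2 fold change 0.72, SE 0.17, adjusted p = 0.00243), a call that was lost when only the groups compared were fitted (adjusted p = 0.107). As in H2afx and Hmgb2, library 1 was the highest in these genes, and it also held the most border macrophage RNA and the least neutrophil and monocyte RNA of its group, whose part was not tested. Of the 11 members that were lower at P20 in both kinds of offspring, 7 were among the 10 that were higher in Saline + MG-REP, so 7 of 11 and 7 of 10. Over all transcripts the same overlap was 928, which is 39.1% of the 2371 lower at P20 in both and 55.0% of the 1687 higher in Saline + MG-REP.

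In MIA offspring, no member passed the test between MG-REP and CTRL. Of 28 members 0 passed by limma, where 0.555% of all transcripts passed (79 in number, 0.387% higher and 0.169% lower), and 2 members had an unadjusted p under 0.05. H2afx gave 29.99, 28 and 25.6 TPM in MIA + CTRL and 24.1, 26.9 and 27.5 TPM in MIA + MG-REP (log2 fold change −0.09, 95% confidence interval −0.54 to 0.37), and Hmgb2 gave 6.84, 5.37 and 6.08 and 6.33, 7.55 and 4.87 TPM (0.02). Both overlapped between the groups. The 2 smallest p belonged to H2afy3, a transcribed pseudogene of the macroH2A family, with 0.86, 0.58 and 1.22 and 3.16, 2.18 and 1.90 TPM (0.85, adjusted p = 0.606), and Hist2h2be, with 28.5, 22.7 and 19.7 and 18.6, 15.9 and 17.01 TPM (−0.43, adjusted p = 0.747). Neither gene overlapped between the groups, but such overlap was not counted over all transcripts. None of the 13 replication-dependent genes passed, and all had values below 0 (−1.02 to −0.0084, median −0.28), except that Hist1h1d was above 0 under median-ratio scaling and quantile normalization. Over all transcripts 9321 of 14225 were below 0 (median −0.08). The summed TPM of this class was 499 in MIA + CTRL library 1, against 362 and 385 in the others of that group and 299 to 348 in MIA + MG-REP.

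The MG-REP difference itself differed between the 2 kinds of offspring for 9 members, 8 lower and 1 higher in MIA than in Saline offspring, where 10.5% of all transcripts passed the same test (4.42% higher, 6.09% lower). For H2afx the difference was −2.23 (SE 0.31, adjusted p = 3.08e-05), for Hist1h1b −1.95 (SE 0.60, adjusted p = 0.0390) and for Hmgb2 −1.56 (SE 0.29, adjusted p = 0.000766). H2afj (−1.09) and H3f3a (−0.67) followed, and Hmga2-ps1 had the opposite sign (1.51, SE 0.27, adjusted p = 0.000446). Of these genes, H2afx, Hmgb2, H2afj, H3f3a and Hmga2-ps1 kept the call in all 12 fits without 1 library, while Hist1h1b lost it in 7, H1f0 in 6, Hmgn1 in 8 and Hmgn5 in 9. The count was 5 without Saline + CTRL library 1 or 3, Saline + MG-REP library 1, or MIA + MG-REP library 2 or 3.

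Between MIA and Saline offspring of the same age on normal feeding, 0 of 28 members passed at any of E17, P7, P20 and P60 or averaged over the 4 ages, where 0% of all transcripts passed by limma. At an unadjusted p under 0.05 there were 1, 0, 3 and 0 members at the 4 ages and 2 in the average, against 585, 335, 457, 256 and 477 transcripts. The smallest p of a member was that of Hist1h2ae, an H2A gene, in the average over ages (0.55, SE 0.17, adjusted p = 0.931 by limma). It gave 2.27, 3.13 and 2.81 TPM in E17 Saline against 5.56, 4.19 and 4.62 TPM in E17 MIA, 3.29, 3.81 and 4.13 against 4.59, 5.31 and 6.35 TPM at P7, 1.13, 4.0 and 4.61 against 4.70, 5.91 and 5.36 TPM at P20 and 3.2, 2.46 and 5.22 against 5.89, 2.99 and 7.54 TPM at P60. The groups overlapped at P60 but not at E17, P7 or P20, on a median of 9.5 reads per library. At P20 the nearest libraries had 4.61 and 4.70 TPM, where 1 read was worth a median of 0.465 TPM. The gene was picked by its p, and such overlap was not counted over all transcripts, so it adds no support. Hist1h4k followed (0.56, adjusted p = 0.931).

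At single ages, Hmga2-ps1 led at E17, with 32.7, 22.7 and 31.0 TPM in Saline and 16.8, 25.8 and 19.8 TPM in MIA offspring (−0.46, adjusted p = 0.754), followed by Hist1h4h (−0.85, adjusted p = 0.754). H2afj led at P20, with 68.2, 68.6 and 75.8 TPM in Saline and 60.1, 55.1 and 57.7 TPM in MIA offspring (−0.29, adjusted p = 0.9999), followed by Hist1h1d (1.07). H2afj did not overlap between those groups, whereas Hmga2-ps1 did at E17, and such overlap was not counted over all transcripts. Hmga2-ps1 (−0.25) and Hist1h2ae (0.43) had the smallest p at P7, and Hist1h1b (0.85) and Hmgn5 (0.51) at P60. For the abundant H3f3b, the 95% confidence intervals of the log2 fold change were −0.32 to 0.19 at E17 and at P7, −0.26 to 0.25 at P20 and −0.35 to 0.16 at P60.

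Some members were highest in libraries with much RNA of other brain cells. H1fx, a replacement H1 gene, and H2afy2, which encodes macroH2A2, a histone variant with a large extra domain, were highest in the libraries with the most neural progenitor RNA. H1fx gave 196, 44.7 and 88.6 TPM in E17 MIA and 51.1, 58.1 and 96.1 TPM in P7 MIA, against summed neural progenitor markers of 3489, 768.2 and 1641 TPM and 942.9, 808.3 and 2832 TPM. H2afy2 gave 123.49, 21.53 and 40.5 and 24.4, 22.4 and 51.9 TPM in the same libraries. In both genes, library 1 of E17 MIA and library 3 of P7 MIA were the highest of their groups, as they were in these markers. These libraries were also the highest of their groups in neuron, astrocyte and oligodendrocyte lineage markers, and the lowest in microglia markers. Astrocyte markers, for example, gave 481, 147 and 387 TPM in E17 MIA and 453, 435 and 1341 TPM in P7 MIA. The part of each cell type was not tested. The library highest in neural progenitor markers was also the highest of its group for H1fx in 9 of 10 groups, for H2afy2 and H2afv in 8 and for Hist3h2ba in 7, while the other 24 members had 1 to 6. Over all transcripts the median was 4 groups, and 8.12% had 9 or more, 14.8% had 8 or more and 23.3% had 7 or more.

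These markers were lower in the older libraries too, at 187 to 431 TPM at P20 against 808 to 2832 TPM at P7. All 5 progenitor markers measured were above 0 in every library but for Neurog2, at 0 in 1, and Fabp7 gave most of the sum (21.3 to 2601 TPM). From P7 to P20, H1fx changed by −1.67 (SE 0.52, adjusted p = 0.0146) in Saline and −1.72 (SE 0.52, adjusted p = 0.0122) in MIA offspring on the log2 scale. H2afy2 changed by −1.41 (SE 0.44, adjusted p = 0.0142) and −1.88 (SE 0.44, adjusted p = 0.00158). The H1fx call was lost without P7 MIA library 3 (adjusted p = 0.0598) and, in Saline offspring, without P7 Saline library 2 (0.0503) or P20 Saline library 3 (0.0807). The part of other cells in these falls was not tested.

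**Figure D4:**
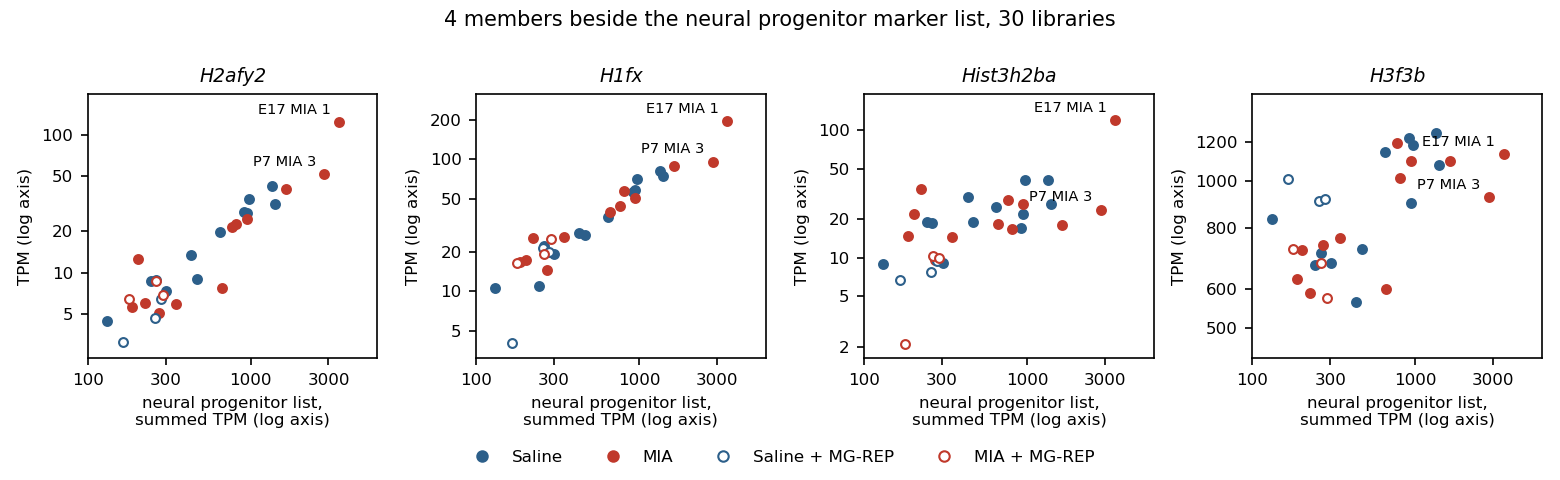
TPM of H2afy2, H1fx, Hist3h2ba and H3f3b (vertical axes, log scale) against summed TPM of 5 neural progenitor markers (horizontal axes, log scale) in the 30 libraries, coloured by maternal treatment with open circles for MG-REP, with the 2 libraries of most progenitor RNA named. H2afy2 and H1fx are high where the markers are high, within 3.13 to 123 and 4.05 to 196 TPM, Hist3h2ba is set apart by E17 MIA library 1 at 119.9 TPM, and H3f3b has its high values at both low and high marker levels.

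How many reads stood behind a value differed between genes by orders of magnitude, and the classes overlapped. H3f3b had a median of 6472 estimated reads per library, H1f0 1968 and H2afx 391, against 346 for Hist1h1c, 21.0 for Hist1h4i and 5.0 each for Hist1h4k and Hist1h1b. For 8 of 13 replication-dependent genes the median was 21 reads or less. The SE of the MG-REP log2 fold change did not follow the reads alone: it was 0.43 for Hist1h1b, 0.33 for Hist1h2ae at 9.5 reads and 0.52 for H1fx at 103 reads. Of the 40-base stretches of Hist1h4k, 79.1% also occurred in another gene, as did 71.5% of those of Hmgn2 and 65.6% of those of Hmgb1. The share was 51.5% in Hist1h2bg, 47.1% in Hist1h4h, 45.9% in Hist1h2ae, 33.4% in Hist1h1e and 31.0% in H3f3a. Of the abundant replication-dependent genes, Hist1h2bc had 32.6%, spread over 797 other genes, Hist3h2a 31.8% and Hist3h2ba 29.4%. Hist1h4i had 31.8%. It was 13.5% in H3f3b, 10.6% in H2afx and 9.8% in Hist1h1c. How the authors assigned such reads is not given in the sources used here. Values of the genes with high shares, Hmgn2 among them, are therefore uncertain. Reads of H1f0, H1fx, H3f3a, H2afy2 and H2afy3 could also come from genes on the opposite strand that overlap them. On the same strand, the GENCODE transcript of Hist3h2a overlaps exons of Trim17, and that of Hist1h1e exons of Hist1h2be and Gm11398. MicroRNA genes on the opposite strand overlap Hist3h2a, Hist1h2ae, H2afx and H2afj.

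**Figure D5:**
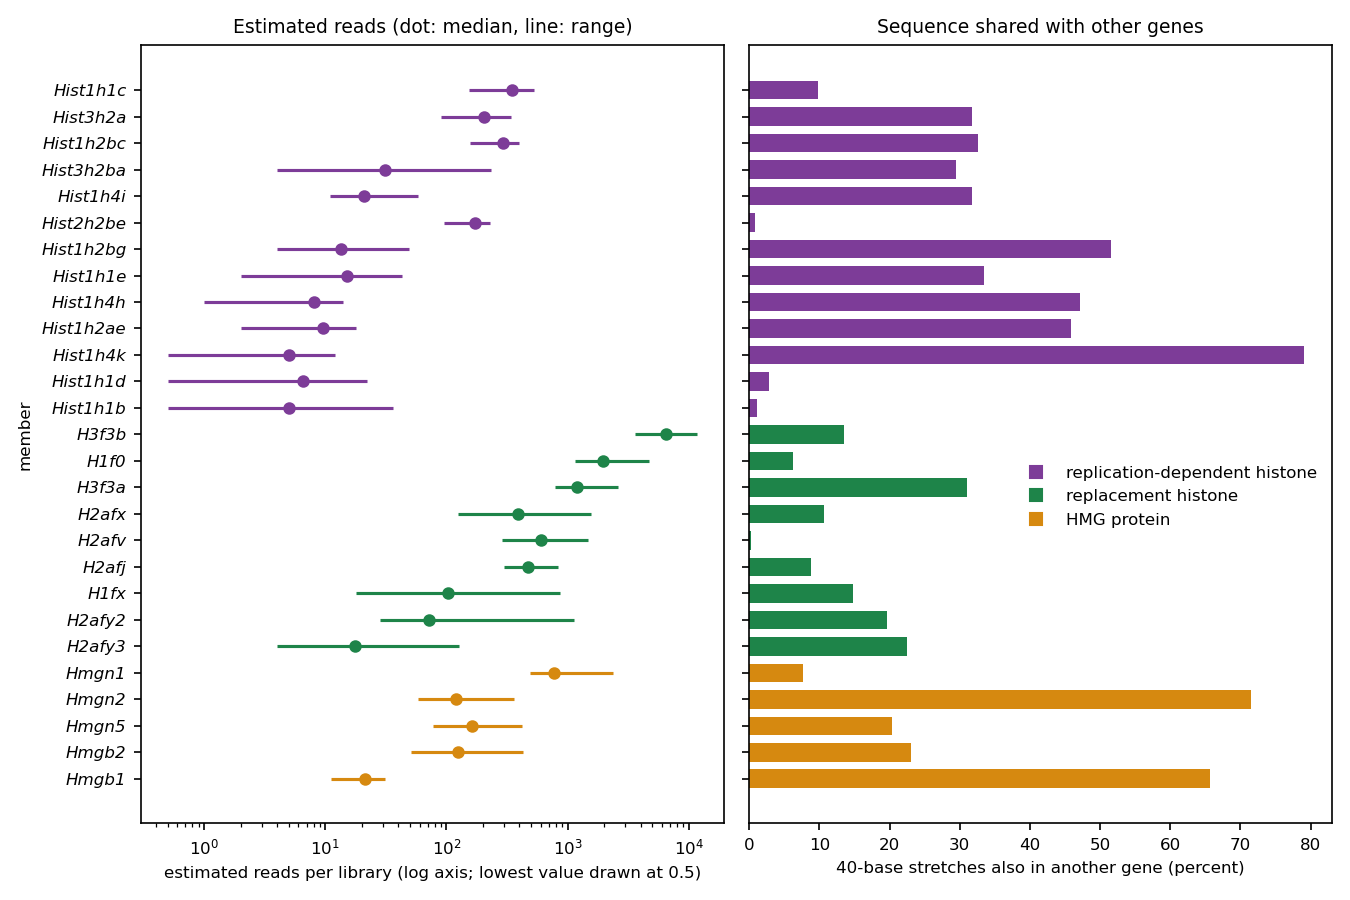
Estimated reads per library (left, log scale, dot for the median and line for the range of 30 libraries, with 0 drawn at 0.5) and percent of 40-base stretches that also occur in another gene (right) for 27 members, coloured by class. The replication-dependent genes span medians of 5.0 to 346 reads and shares of 0.8% to 79.1%, and Hmga2-ps1 is not drawn because no transcript sequence was matched.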

How the data were processed

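RNA of CD11b+ cells was sequenced as poly(A)-enriched, non-stranded single-end reads of 40 bases in 30 libraries (10 groups of 3). Per the labels and methods, the authors aligned reads to mm10 with Rsubread, counted genes with featureCounts and kept those at a CPM of 2 or more in at least 3 libraries. The deposited values are TPM that the authors made from those counts, with a formula not given in the sources used here. Each library summed to 995494.7 to 998011.9 TPM, and 0 pairs of libraries were identical.

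Here log2(TPM + 1) of all 14225 transcripts was fitted in limma 3.58.1 (R 4.3.3) with 10 groups, a trended prior and Benjamini-Hochberg adjustment over all transcripts at 0.05, and fold changes are on that scale, which understates low genes. The script was tested on simulated data. Other tables were made with Python 3.11.15, pandas 2.3.3 and numpy 2.4.6. Depth was inferred from the TPM worth of 1 read in weakly expressed single-exon transcripts, where 95.3% to 100% of values came within 0.2 of a whole read (40% by chance). Sequences came from RefSeq (GRCm38.p6, 14121 transcripts or 99.27% matched) and GENCODE. The stem-loop was searched on the mRNA strand as a stem of the histone type around a loop of 4 bases, and promoters for CCAAT and TATAAA on both strands.

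Members, lists and alternatives were chosen with earlier results of these data known. Every member was named or counted, with library values for the most abundant of each class and, per comparison, for the 3 largest called changes or, with none called, the 2 smallest p. Alternatives were another pseudocount (0.1), a filter (mean TPM of 1 or more), 2 other scalings, a replicate block, only the groups compared, no trend, an Xist covariate at P60, and each library left out. Class sums without H3f3b or Hmga2-ps1 were added after seeing the data. The labels give no batch, litter or sex, and do not say that libraries are separate litters, so p-values measure the spread between libraries. Replicate numbers stand in the labels with no stated link between groups. The deviations of same-numbered libraries from their group means were correlated. Only for MIA against Saline at P20 did all 3 pairs have r over 0.1 (0.238, 0.104 and 0.132). These values are low, and single pairs elsewhere were higher, such as 0.656 at E17, so they do not establish a pairing.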

Additional observations from a re-analysis of the deposited data

Results flagged for a closer look

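For 9 members the difference between MG-REP and CTRL was not the same in MIA as in Saline offspring by a test of the difference itself (limma, MIA minus Saline, on the log2 scale, 3 libraries a group). The replacement histones were H2afx at −2.23 (SE 0.31, adjusted p = 3.08e-05), H2afj at −1.09 (SE 0.18, adjusted p = 0.000273), H1f0 at −0.81 (SE 0.25, adjusted p = 0.0380) and H3f3a at −0.67 (SE 0.15, adjusted p = 0.00344). The HMG genes were Hmgb2 at −1.56 (SE 0.29, adjusted p = 0.000766), Hmgn5 at −1.21 (SE 0.39, adjusted p = 0.0497), Hmgn1 at −0.66 (SE 0.21, adjusted p = 0.0450) and Hmga2-ps1 at 1.51 (SE 0.27, adjusted p = 0.000446). The replication-dependent gene was Hist1h1b at −1.95 (SE 0.60, adjusted p = 0.0390). With log2 Xist as a covariate all 9 were called. Of the DNA replication list, 28 of 40 transcripts were lower in the same test.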

How the results depend on the processing

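Under the settings other than leaving out a library, 101 of 102 counts of members called stayed within 1.5 times the reported count, and the exception was P60 against P20 in Saline offspring, with 1 member called at a pseudocount of 0.1 against 0. Within that limit calls were still lost. The counts ranged from 8 to 13 for MG-REP in Saline offspring (12 reported) and from 6 to 9 for the difference between MIA and Saline offspring (9 reported). For P20 against P7 they ranged from 12 to 13 in Saline and 15 to 18 in MIA offspring. With each library left out in turn, the counts ranged from 6 to 11 for MG-REP in Saline offspring (12 with all libraries), 5 to 10 for the difference between MIA and Saline offspring (9), 11 to 14 and 13 to 15 for P20 against P7 in Saline and MIA offspring (13 and 17), 0 to 1 for P60 against P20 in Saline offspring and 0 to 2 for P7 against E17 in MIA offspring (0 in both), and 0 in the others. Mki67 in MIA + MG-REP against MIA + CTRL was −0.03 and not called. It changed sign to 0.0244 under median-ratio scaling and 0.0689 after quantile normalization, and ranged from −0.1009 to 0.0794 with each library left out (above 0 without MIA + MG-REP library 1 or MIA + CTRL library 1). Pcna in Saline offspring (0.72) lost the call when only the groups compared were fitted (adjusted p = 0.107). The cause was not tested. Quantile normalization moved the median of all transcripts by −0.11 for MIA against Saline at E17, and 0 called members changed sign under either scaling. The log2 ratios of class sums were also taken as class medians and without the most abundant or a named gene. Of these 24 values, 14 moved by at least the pooled SD of the groups compared and 10 by less. With a library left out, 72 of 72 moved by less.

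Over all ages, same-numbered libraries deviated together (r over 0.1) in 12 of 27 pairs (r from −0.53 to 0.66). Saline and MIA at P20 were the only 2 groups in which every pair did, which does not establish a pairing. With the replicate block 13 members were called for MG-REP in Saline offspring, 9 for the difference, 13 and 17 for P20 against P7 in Saline and MIA offspring, and 0 in the other comparisons, MIA against Saline at P20 among them.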
